A study of Mus musculus with 18 samples.

Results

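The collagen genes were examined in bulk RNA sequencing of mouse oocytes. A gene was a member when its symbol in the deposited table of TPM (transcript levels per gene length, scaled to a library total of 1000000) was Col, a number, the letter a and a number. There were 43 such genes among 28252 in that table. All 43 were matched by Ensembl identifier to the deposited raw counts, which held 53715 genes. Their names refer to the chain they encode, so Col1a1 encodes the alpha 1 chain of type I collagen.

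Collagens are proteins of the extracellular matrix in which chains wind into a triple helix. The chains are made in the endoplasmic reticulum, where hydroxylases modify them and the chaperone Serpinh1 binds the folded helix. After secretion, fibrillar collagens assemble into fibrils, type IV collagen forms the network of basement membranes, type VI collagen forms beaded filaments, and the fibril-associated collagens (FACIT) attach to fibrils. In the ovary, fibrillar collagens are known as products of stromal and thecal cells, and a basement membrane surrounds each follicle.

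The series held 18 libraries in 6 groups of 3. A sham group and an NTY group were sequenced at each of 3 stages, namely MII oocytes (mature eggs arrested in meiosis) and the oocytes of primordial and of primary follicles. All came from C57Bl/6j x CBA/J mice in vivo. The labels gave no age and did not explain NTY. By the labelled protocol, cells cut out with a laser were pooled by oocyte stage, their RNA was amplified with the Ovation PICO system, and libraries were captured with TruSeq RNA Access, a method that enriches coding exons. Collected oocytes were processed with Smart-seq II. The protocol text was shared by all samples, and the 12 libraries of primordial and primary follicles were taken as microdissected from it. Stage and library method therefore cannot be told apart between MII and the other libraries, and no test was made across them. The labels did not say that replicates came from separate animals, so p-values measure only the spread between these samples, which may be technical.

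Total counts ranged from 15149564 to 29205503 in the 12 microdissected libraries and from 8652089 to 9978830 in the 6 MII libraries. A count of 0 was read as at most 3 counts, which was 0.103 to 0.198 CPM (counts scaled to a library total of 1000000) in microdissected and 0.301 to 0.347 CPM in MII libraries. Reads from amplified RNA can repeat a molecule, so the floors hold for counting error alone.

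Several microdissected libraries stood apart in genes other than collagens. In primordial NTY replicate 3, 15 genes of oocyte growth (such as Gdf9, Bmp15 and the zona pellucida genes) summed to 2.22 CPM, against a median of 226 CPM over the 12 libraries. In this library 2 of the 15 genes reached 10 counts, Zp3 was at 0.0370 CPM, and the germ cell gene Ddx4 was also at 0.0370 CPM. Ddx4 was as low, at 0.0441 CPM, in primordial NTY replicate 1. The early oocyte list that holds Ddx4 had its highest sum in primordial NTY replicate 3, 3491 CPM, of which Foxo3, a gene also expressed in other cells, made 3488 CPM. The label as oocytes was thus not borne out there by the oocyte growth genes. The oocyte growth sums of primordial NTY replicate 1 and primary NTY replicate 1 followed with 35.4 CPM each, and primordial sham replicate 3 with 62.6 CPM. The other 8 libraries held 141 to 776 CPM, and the MII libraries 24636 to 41997 CPM. Among the 8, primordial sham replicate 1 had 198 CPM, of which Zp1 made 172 CPM, and 7 of the 15 genes reached 10 counts there. The number was 8 in primordial NTY replicate 1, 9 in primary NTY replicate 1 and 8 in primordial sham replicate 3. Below, named genes whose direction turned without primordial NTY replicate 3 are given so too. Medians, DESeq2 calls and overlaps without it were added after the data were seen.

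Collagen RNA was abundant in every microdissected library and scarce in every MII library. The 43 genes summed to a median of 5398 CPM in the 12 microdissected libraries, with a lowest value of 2951 CPM and a highest of 20213 CPM. This was a median of 0.540% of all counts, with a range of 0.295% to 2.02%. The 6 MII libraries had a median of 146 CPM and a range of 116 to 186 CPM. In bulk samples, fewer cells of a type and less RNA per cell cannot be told apart.

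The sum varied several-fold between replicates of 1 group. The primordial sham libraries had 4975, 3455 and 10867 CPM (6432 ± 3915, mean ± SD, n = 3). The primordial NTY libraries had 5821, 4009 and 15463 CPM (8431 ± 6157, n = 3), and without replicate 3 their mean was 4915 CPM. Each of these groups had 1 high library, and the groups overlapped.

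The primary sham libraries had 3207, 7166 and 3234 CPM (4535 ± 2278, n = 3). The primary NTY libraries had 20213, 6350 and 2951 CPM (9838 ± 9144, n = 3), and without replicate 1 their mean was 4651 CPM. Replicates 2 and 3 of this group carry the codes 2E and 2E2, which may name the same material, so its means, SDs and tests may rest on 2 samples and not 3. The highest and the lowest sums of all microdissected libraries were thus in the same group. The 3 highest collagen sums, 20213, 15463 and 10867 CPM, were in libraries with oocyte growth sums of 35.4, 2.22 and 62.6 CPM, 3 of the 4 lowest. The fourth, primordial NTY replicate 1, had 5821 CPM of collagen. This order is by the sum, and in primordial sham replicate 1, with 4975 CPM of collagen, Zp1 made 172 of 198 CPM. By the number of the 15 genes at 10 counts, the 3 libraries had 9, 2 and 8. Primordial NTY replicate 1 had 8 and primordial sham replicate 1 had 7. What part these differences have in the collagen sums was not tested. The MII sums were 139, 168 and 119 CPM in sham (142 ± 24.8, n = 3) and 152, 116 and 186 CPM in NTY (151 ± 34.9, n = 3). These also overlapped.

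**Figure D1:**
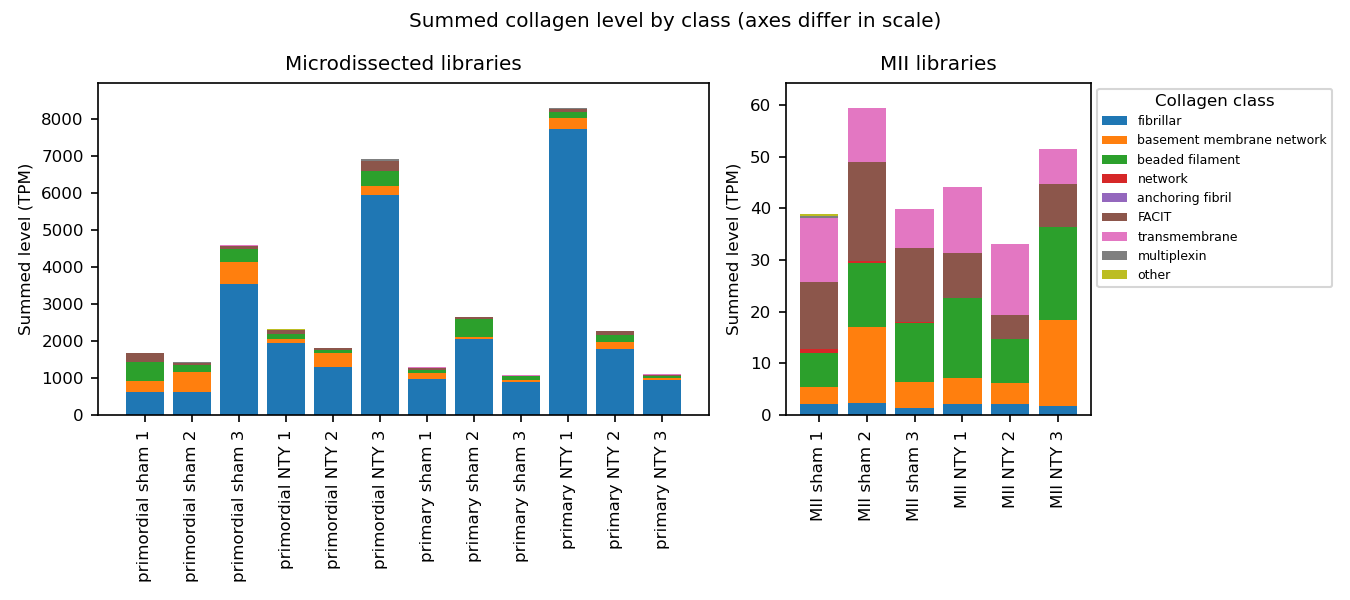
Stacked bars give the summed TPM of the collagen genes in each library, coloured by structural class, with microdissected libraries on the left axis and MII libraries on the right axis, which has a smaller scale. Fibrillar collagens made up 36.6% to 93.1% of the sum in microdissected libraries and 3.23% to 6.30% in MII libraries.

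The makeup of the sum differed too. Per gene length, the 10 fibrillar collagens held a median of 77.7% of collagen TPM in microdissected libraries, the 6 basement membrane chains 7.84%, the 7 beaded filament chains 7.72% and the 9 FACIT genes 3.47%. In MII libraries the fibrillar share was 4.32%, and beaded filament chains held 27.2%, FACIT genes 25.9%, the 4 transmembrane collagens 23.9% and basement membrane chains 12.6%. Type I collagen, made of Col1a1 and Col1a2 chains, held a median of 68.3% of collagen TPM over the 12 microdissected libraries. Primordial sham replicates 1 and 2 were lowest, at 28.8% each, and primary NTY replicate 1 was highest at 86.6%. Col1a1 was the most abundant collagen per length in 10 of the 12 libraries. The exceptions were primordial sham replicate 1, led by the type VI chain Col6a2, and primordial sham replicate 2, led by the basement membrane chain Col4a5.

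Of the 43 genes, 14 had at least 10 counts in all 12 microdissected libraries. These were the type I chains Col1a1 and Col1a2, the type III chain Col3a1, the type V chains Col5a1 and Col5a2, the basement membrane chains Col4a1, Col4a2 and Col4a5, the type VI chains Col6a1, Col6a2 and Col6a3, the FACIT genes Col12a1 and Col16a1, and Col18a1, a basement membrane collagen whose C-terminal fragment is endostatin. A further 8 genes reached 10 counts in 6 to 11 of these libraries, 15 in 1 to 5, and 6 in none. Between 18 and 28 of the genes reached 10 counts per microdissected library, against 10 to 14 per MII library.

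Col1a1 (ENSMUSG00000001506, GRCm38 chr11:94936224-94953042, plus strand) had the highest median level, 943 TPM over the 12 microdissected libraries. Its values were 300, 148 and 2770 TPM in primordial sham, 1158, 1037 and 4622 TPM in primordial NTY, 571, 1387 and 447 TPM in primary sham, and 6616, 849 and 629 TPM in primary NTY. In 3 of the 4 groups, 1 library was more than 3 times as high as the next. In MII oocytes 7 counts were found in sham replicate 2 and 0 in the 5 others.

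Col1a2 (ENSMUSG00000029661, chr6:4504814-4541544, plus strand) encodes the other chain of type I collagen. Its values were 186, 266 and 553 TPM in primordial sham, 503, 145 and 1008 TPM in primordial NTY, 300, 426 and 282 TPM in primary sham, and 563, 495 and 221 TPM in primary NTY. It varied less than Col1a1, and all 4 groups overlapped. No MII library had a count. The lowest microdissected library was at least 1571-fold higher than the highest floor of an MII library.

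Col3a1 (ENSMUSG00000026043, chr1:45311538-45349706, plus strand) encodes type III collagen, which forms fibrils together with type I. Its values were 42.7, 39.6 and 115 TPM in primordial sham, 236, 57.6 and 152 TPM in primordial NTY, 51.8, 91.5 and 119 TPM in primary sham, and 295, 95.9 and 31.7 TPM in primary NTY. The groups overlapped here too. No MII library had a count, a difference of at least 284-fold by the same reckoning.

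Col5a1 and Col5a2 encode type V collagen, which joins type I fibrils and limits their width. Col5a2 was at 11.1 to 60.5 TPM in 10 microdissected libraries and at 218 and 302 TPM in primary NTY replicates 1 and 2. Col5a1 ranged from 0.824 TPM in primordial sham replicate 1 to 124 TPM in primordial NTY replicate 3. Both had 0 counts in all 6 MII libraries, at least 97.3-fold lower for Col5a2 and at least 6.28-fold lower for Col5a1. The minor fibrillar genes were uneven. Col11a1, a cartilage fibril chain, had 1924, 1374 and 1534 counts in primary sham and 55, 0 and 0 in primary NTY. Its partner Col11a2 had 1637 counts in primordial sham replicate 2 and at most 11 in any other library.

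Among basement membrane chains, Col4a1 and Col4a2 form the heterotrimer found in most basement membranes. Col4a1 was at 192, 25.5 and 128 TPM in primordial sham, 25.6, 9.97 and 133 TPM in primordial NTY, 20.8, 31.6 and 14.4 TPM in primary sham, and 129, 81.0 and 13.0 TPM in primary NTY. Col4a2 was at 46.1, 10.3 and 70.9 TPM in primordial sham, 3.11, 32.1 and 106 TPM in primordial NTY, 8.81, 6.85 and 1.88 TPM in primary sham, and 42.9, 51.9 and 10.1 TPM in primary NTY. All 3 primary sham libraries were below all primordial sham and all primary NTY libraries for Col4a2, but not for Col4a1. Col4a5, an X-linked chain, was the most abundant type IV chain by median, at 72.9 TPM, and ranged from 15.8 to 519 TPM. Its partner Col4a6 had 0 counts in 3 microdissected libraries and 1739 counts in primary NTY replicate 3. Col4a3, a chain of the mature kidney and lung basement membranes, went the other way, with at most 125 counts in microdissected libraries and 96, 310 and 139 counts in MII sham and 6, 95 and 483 counts in MII NTY.

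Type VI collagen is built from Col6a1, Col6a2 and a longer chain. Col6a1 ranged from 0.968 to 136 TPM, Col6a2 from 0.626 to 336 TPM and Col6a3 from 5.74 to 149 TPM in microdissected libraries. Col6a1 and Col6a2 had 0 counts in all 6 MII libraries, at least 3.88-fold and 4.53-fold lower than the lowest microdissected library. Col6a3 was present there, at 4.31, 7.24 and 5.41 TPM in MII sham and 5.85, 2.70 and 7.02 TPM in MII NTY. The longer chains Col6a5 and Col6a6 also reached 10 counts in all 6 MII libraries, while the long chain Col6a4 had 0, 11 and 38 counts in sham and 3, 0 and 4 in NTY. So in MII oocytes 3 of the 4 long chains were detected in every library and the short chains Col6a1 and Col6a2 in none, at a floor of 0.301 to 0.347 CPM.

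Chains of the same protein often differed in TPM within a library. What part capture, amplification and the gene lengths behind the TPM have in this was not tested. Both type I chains reached 10 counts in 12 of 12 microdissected libraries, and the TPM ratio of Col1a1 to Col1a2 had a median of 2.57 and a range of 0.557 to 11.7. The ratio of Col4a1 to Col4a2 had a median of 2.42 and a range of 0.311 to 8.23. That of Col6a1 to Col6a2 ranged from 0.157 to 47.7, and that of Col5a1 to Col5a2 from 0.0166 to 4.58. Col4a5 reached 10 counts in all 12 libraries and Col4a6 in 9 of them. For Col11a1 and Col11a2, 1 library had both, 7 had the first, 1 had the second and 3 had neither. Of the type IX chains, Col9a1 had 0 counts in all 18 libraries. Col9a2 reached 10 counts in 3 microdissected libraries and in no MII library, and Col9a3 in 3 microdissected and all 6 MII libraries. For Col8a1 and Col8a2, chains of a network collagen, 1 library had the first and none the second.

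**Figure D2:**
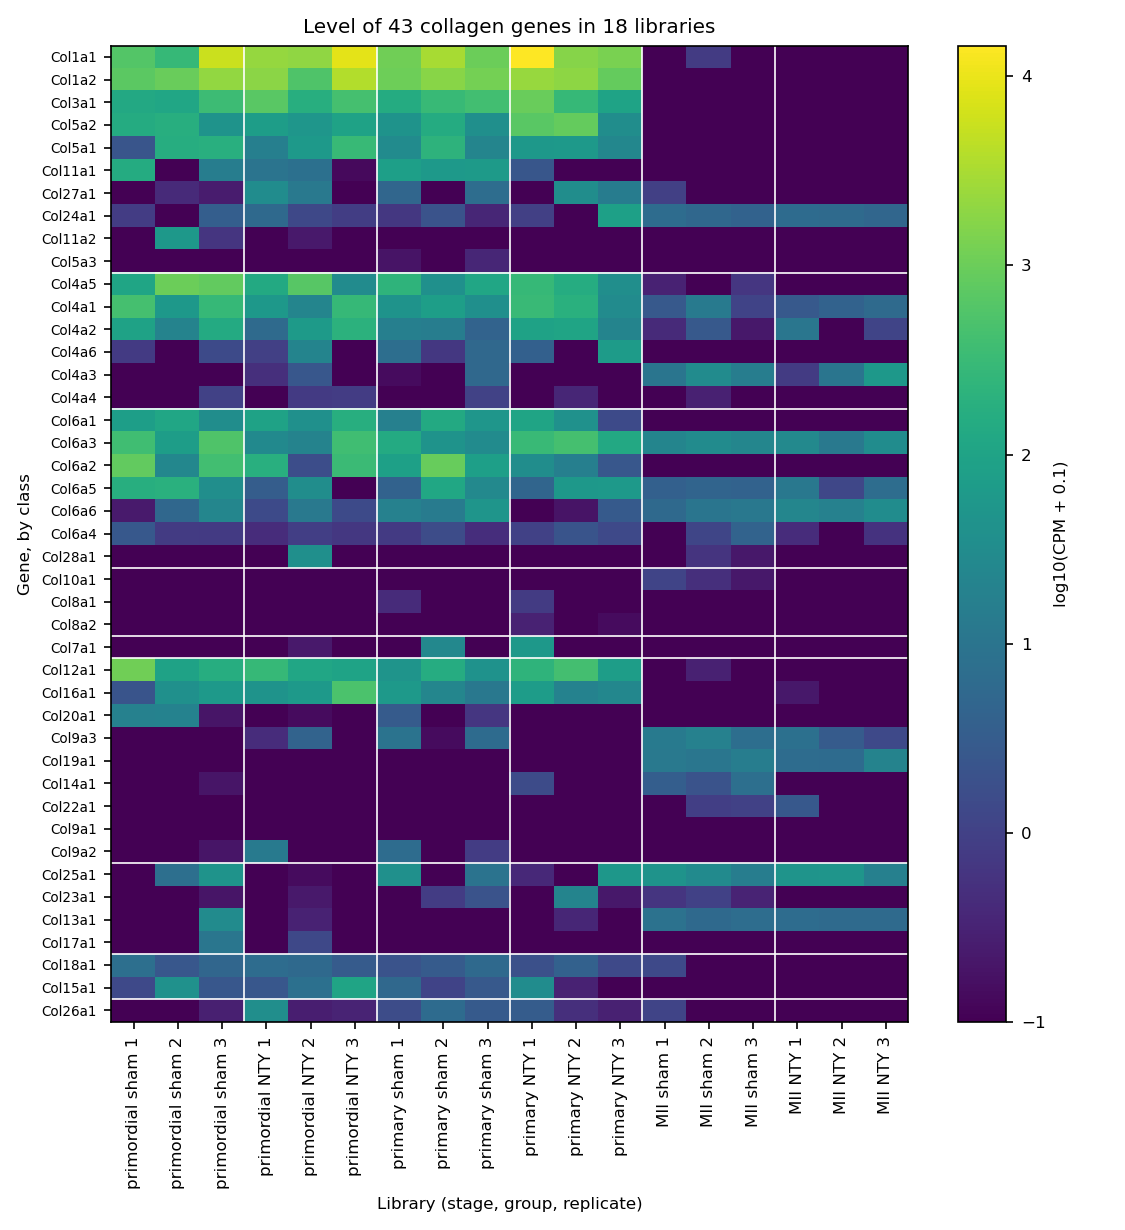
Each row is a collagen gene, grouped by class with white lines, and each column a library; colour gives log10 of CPM plus 0.1. The 14 genes with at least 10 counts in all 12 microdissected libraries stand out as continuous bright rows, and Col19a1 has signal in all 6 MII libraries and in no other.

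Many collagen genes were high in some microdissected libraries and at 0 in others. In 9 of the 43 genes the 12 libraries ranged from 0 to at least 1000 counts, and the same was true of 19.8% of all 25283 genes with a count in any library, so this was not particular to collagens. Col25a1, a transmembrane collagen of neurons, was at 0, 219 and 947 counts in the primordial sham libraries and at 7, 0 and 1366 in the primary NTY libraries. Col28a1 had 883 counts in primordial NTY replicate 2 and 0 in the 11 others. Col7a1, the anchoring fibril collagen of skin, had 573 and 1327 counts in primary sham replicate 2 and primary NTY replicate 1 and at most 3 elsewhere. In the library with 573 counts the keratin Krt19 was at 1854 CPM and in the library with 1327 counts at 86.0 CPM, against at most 0.0850 CPM in the 10 others. Krt19 and 5 other markers of the ovarian surface epithelium summed to 2714 and 388 CPM in these libraries and to 0 to 256 CPM in the others. Their part in the Col7a1 values was not tested.

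In MII oocytes, 8 genes had at least 10 counts in all 6 libraries, 9 in 1 to 5 libraries, 8 had 1 to 9 counts at most, and 18 had no count. The 8 were Col6a3, Col6a5, Col6a6, the fibrillar chain Col24a1, the FACIT genes Col9a3 and Col19a1, and the transmembrane collagens Col13a1 and Col25a1. By median, Col25a1 had 7.16 TPM, Col6a3 5.63 TPM, Col9a3 5.20 TPM, Col6a6 4.46 TPM, Col19a1 4.20 TPM, Col13a1 3.62 TPM, Col24a1 1.98 TPM and Col6a5 1.25 TPM. The ranges over the 6 libraries of neighbours in this order overlapped, except that every library had more Col13a1 than any had Col24a1.

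Col19a1 (ENSMUSG00000026141, chr1:24261890-24587472, minus strand) was the clearest case. It had 116, 107 and 137 counts in MII sham and 58, 60 and 173 counts in MII NTY, and 0 counts in all 12 microdissected libraries. The lowest MII library was at least 32.4-fold higher in CPM than the highest microdissected floor. Every MII library exceeded every microdissected library for this gene alone among the 43, against 15.2% of all genes. The reverse, every microdissected library above every MII library, held for 12 of the 43 genes, against 1.58% of all genes. These were Col1a1, Col1a2, Col3a1, Col4a1, Col4a5, Col5a1, Col5a2, Col6a1, Col6a2, Col12a1, Col16a1 and Col18a1. Stage, capture, amplification and library method all differ between these sets and cannot be told apart.

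The effect of NTY was asked within each stage. The filter on low counts kept 29 of the 43 genes in the fit of the 12 microdissected libraries and 11 in that of the MII libraries, among 10522 and 12209 genes. Col1a1 and Col1a2 were thus tested in follicle stages, and Col19a1 and Col25a1 in MII oocytes. With edgeR's quasi-likelihood test, no collagen gene had a Benjamini-Hochberg adjusted p under 0.05 in any comparison.

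In primordial follicles, the type I and III chains had higher fitted levels in NTY than in sham, but none passed the test. The log2 fold change was 1.50 ± 0.97 (SE) for Col1a1 (edgeR adjusted p = 0.607), 1.10 ± 1.02 for Col1a2 (edgeR adjusted p = 0.764) and 1.37 ± 1.60 for Col3a1 (edgeR adjusted p = 0.850). Without primordial NTY replicate 3, the library lowest in genes of oocyte growth, the values turned to -0.17 for Col1a1 and -0.19 for Col1a2. Without primordial sham replicate 3 they were 3.77 and 1.67. The smallest p belonged to Col20a1, a FACIT gene, with 282, 566 and 2 counts in sham and 0, 1 and 0 in NTY. Its pooled ratio of sham to NTY was 951, with a 95% counting interval of 170 to 37610 from an exact binomial. That interval covers only the counting error of the pooled reads and leaves out the spread between replicates. The fitted log2 change, which depends on the prior count, was -9.47 ± 3.95 (edgeR adjusted p = 0.405), and 1 of the 3 sham libraries was near 0 as well.

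In this comparison 0 collagen genes passed edgeR, against 0.0095% of all genes, and 4 had an unadjusted p under 0.05 (2 higher and 2 lower in NTY), against 10.9% of all genes. DESeq2 called 3, Col20a1, Col25a1 and Col26a1, against 11.4% of all genes. Col26a1 had 0, 0 and 4 counts in sham and 804, 4 and 6 in NTY, so it rested on 1 library. No collagen gene was higher in all 3 NTY libraries than in all sham libraries, against 5.19% of all genes. Col20a1 and Col6a5 were lower without overlap, against 2.78%. With counts under 3 read as 3, a check added after the data were seen, Col6a5 was left as lower, against 2.66%, and none as higher, against 4.39%. The median log2 fold change of the 29 genes was 0.61 and that of all genes tested 0.12. For 1 of the 29 a group was at 0. With such genes at their bound the medians were 0.61 and 0.07. They were 0.94 and 0.10 with DESeq2's size factors (RLE), and 0.090 and 0 without the filter on low counts. The collagen median changed sign in 2 of the 6 fits that each left out 1 library. The filter kept 33 collagen genes without primordial NTY replicate 3, and their median turned to -0.83, against 0.01 for all genes. DESeq2 then called Col7a1, Col20a1, Col25a1 and Col26a1, against 9.6% of all genes. Col4a3, Col9a3 and Col27a1 were higher without overlap, against 16.7%, and Col6a3, Col6a5 and Col20a1 lower, against 3.05% (the first 2 when counts under 3 were read as 3, against 2.89%).

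In primary follicles the picture was similar. Col1a1 had a log2 fold change of 2.08 ± 0.99 (edgeR adjusted p = 0.577), and 0.25 without primary NTY replicate 1, the library with 6616 TPM and with 35.4 CPM of oocyte growth genes. Col1a2 was at 0.79 ± 1.01 and Col3a1 at 1.13 ± 1.60 (edgeR adjusted p = 1 for both), and without primary NTY replicate 1 Col3a1 was at 0.056. The smallest p was that of Col9a3, with 224, 1 and 148 counts in sham and 0, 0 and 0 in NTY. The sham mean of 5.24 ± 4.75 CPM (SD, n = 3) was at least 40.7-fold higher than the highest floor of an NTY library. This holds for the mean only, since the sham library with 1 count was below that floor. The fitted log2 change was -9.51 ± 3.62 (edgeR adjusted p = 0.500).

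Here 0 collagen genes passed edgeR, against 0% of all genes, and 4 had an unadjusted p under 0.05 (1 higher and 3 lower), against 8.15% of all genes. DESeq2 called Col9a2, against 6.59%. Its counts were 156, 0 and 17 in sham and 0, 0 and 0 in NTY, so the groups overlapped at 0. Col4a2 was higher in every NTY library than in every sham library, against 1.24% of all genes. Col6a2, Col6a6, Col9a3 and Col11a1 were lower without overlap, against 13.8%. Col9a3 rested on 1 count in 1 sham library, and the other 3 were left with counts under 3 read as 3, against 12.6%, as was the higher Col4a2, against 1.23%. Col6a2 was at 35.9, 336 and 28.5 TPM in sham and 12.4, 6.60 and 0.929 TPM in NTY. The median log2 fold change was 0.79 for the 29 genes and -0.10 for all genes, and 0.79 and -0.09 with genes that had a group at 0 (3 of the 29) at their bound. With RLE size factors the medians were 1.20 and 0.19, and with the replicate number as a block 0.91 and -0.75. Without primary NTY replicate 1 the collagen median was 0.13.

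Markers of other cells varied between these same libraries. Smooth muscle and pericyte markers summed to 2855, 1639 and 70.8 CPM in primary NTY and to at most 286 CPM in primary sham. Their most abundant gene, Acta2, was at 2581, 1636 and 0.0791 CPM in primary NTY. The 2 libraries with high Acta2 were those with the highest Col5a2, and replicate 1 also had the highest Col1a1. The list did not move as a whole. Myh11 was at 148, 0.0443 and 34.4 CPM in primary sham and 1.73, 0.258 and 5.02 CPM in primary NTY, and Pdgfrb, Cspg4 and Rgs5 were at 0 in primary NTY replicate 2. Of the 6 markers, 5, 2 and 2 reached 10 counts in the NTY libraries. Their part in the collagen values was not tested.

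In MII oocytes the spread between libraries was smaller, with a common dispersion of 0.542 against 3.59 in the microdissected fit. Col14a1, a FACIT gene, had 32, 20 and 69 counts in sham and 0, 0 and 0 in NTY. The lowest sham library was at least 5.78-fold higher in CPM than the highest NTY floor. The fitted log2 change was -8.33 ± 1.97 (edgeR adjusted p = 0.877). Col6a6 had 56, 101 and 103 counts in sham and 202, 174 and 279 counts in NTY, so its groups did not overlap either.

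Of the 11 genes tested in MII oocytes, 0 passed edgeR, against 0% of all genes, and 2 had an unadjusted p under 0.05 (1 higher and 1 lower), against 2.29% of all genes. DESeq2 called Col14a1, against 0.238%, with a DESeq2 adjusted p of 0.04995, just under the threshold of 0.05. Col6a6 was higher without overlap, against 2.3% of all genes, and Col14a1 lower, against 6%. The median log2 fold change was -0.02 for the 11 genes and 0.00 for all genes, with no change when genes with a group at 0 (1 of the 11) were set to their bound. Without the filter on low counts the medians were -1.68 and -0.17.

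**Figure D3:**
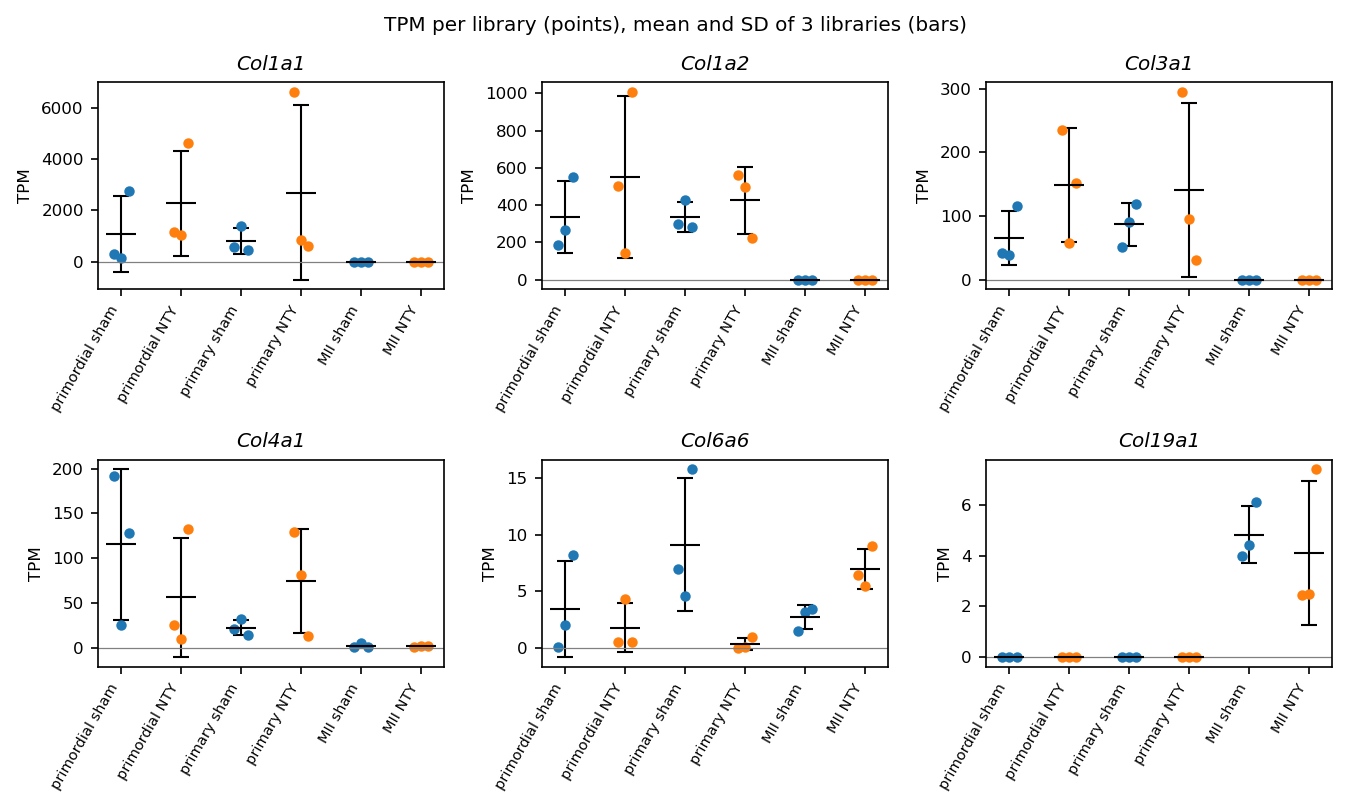
Points give the deposited TPM of 6 collagen genes in each library, with sham in blue and NTY in orange; black bars are the mean and SD of 3 libraries, and each panel has its own linear axis. The highest Col1a1 value, 6616 TPM, is in primary NTY replicate 1, and Col19a1 is at 0 in all follicle libraries.

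The step from primordial to primary follicles was compared within sham and within NTY. The comparisons use the same libraries as those above. In sham, the log2 fold change of primary against primordial was -0.53 ± 0.95 for Col1a1, -0.18 ± 1.00 for Col1a2 and 0.21 ± 1.58 for Col3a1 (edgeR adjusted p = 1 for each). The value for Col3a1 turned to -0.12 with DESeq2's size factors, and those for Col1a1 and Col1a2 to 1.77 and 0.41 without primordial sham replicate 3. Col9a3 again had the smallest p, with 0 counts in all primordial sham libraries. The primary sham mean was at least 26.5-fold higher than the highest primordial floor, but its lowest library was below that floor. The fitted log2 change was 9.51 ± 3.63 (edgeR adjusted p = 0.473).

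Within sham, 0 of 29 genes passed edgeR, against 0.0095% of all genes, 1 had an unadjusted p under 0.05, against 9.28%, and DESeq2 called 0, against 7.29%. Col9a3 and Col26a1 were higher in primary follicles without overlap, against 14.5% of all genes. Of these Col26a1 was left with counts under 3 read as 3, against 12.7%. Col4a2 was lower without overlap, against 1.1%. The median log2 fold change was -0.51 for the 29 genes and 0.29 for all genes, and -0.51 and 0.27 with genes that had a group at 0 (1 of the 29) at their bound. The collagen median was -0.78 against 0.00 for all genes with RLE size factors, those of DESeq2, and -0.073 against 1.05 with the replicate number as a block. Of the 29 genes, 9 had a higher and 20 a lower fitted level in primary follicles, where 55.4% of all genes were higher.

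Within NTY, the log2 fold change was 0.05 ± 0.95 for Col1a1 (edgeR adjusted p = 1), -0.49 ± 1.01 for Col1a2 (edgeR adjusted p = 0.943) and -0.03 ± 1.58 for Col3a1 (edgeR adjusted p = 1). The Col1a1 value became -0.83 with DESeq2's size factors and -1.76 without primary NTY replicate 1. The values without primordial NTY replicate 3 were 1.70 for Col1a1, 0.81 for Col1a2 and 0.31 for Col3a1. Col9a2 had the smallest p, but its 305 counts were all in primordial NTY replicate 1 and the other 5 libraries had 0. The primordial mean was at least 34.8-fold higher than the highest primary floor, with a fitted log2 change of -9.74 ± 3.85 (edgeR adjusted p = 0.439). Without that library no fold could be given.

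Within NTY, 0 of 29 genes passed edgeR, against 0% of all genes, and 4 had an unadjusted p under 0.05 (2 higher and 2 lower), against 9.97%. DESeq2 called Col9a2, Col23a1 and Col25a1, against 10.7%. Each rested on 1 library. Col23a1 had 0, 503 and 3 counts in primary NTY and 0, 3 and 0 in primordial NTY. Col25a1 had 7, 0 and 1366 counts in primary NTY and 0, 1 and 0 in primordial NTY. Col6a4 was higher in primary follicles without overlap, against 2.51%, and no gene was lower without overlap, against 4.61%. This did not change with counts under 3 read as 3, against 2.31% and 4.19%. The medians were -0.49 and 0.08, and -0.43 and 0.08 with genes that had a group at 0 (3 of the 29) at their bound. The collagen median was -0.99 against 0.09 for all genes with RLE size factors and -0.27 against -0.10 with the block. Of the 29 genes, 12 had a higher and 17 a lower fitted level, where 51.5% of all genes were higher. The medians without primordial NTY replicate 3 were 0.31 for 33 collagen genes and 0.10 for all genes. DESeq2 then called Col6a3, Col11a2, Col17a1 and Col25a1, against 8.99%. Col6a3 and Col6a4 were higher without overlap, against 2.98%, and Col4a3, Col9a3, Col11a1 and Col18a1 lower, against 15.6%.

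Whether the NTY effect differed between primary and primordial follicles was tested as an interaction. The difference of log2 fold changes, primary minus primordial, was 0.58 ± 1.34 for Col1a1 (edgeR adjusted p = 0.962), -0.31 ± 1.42 for Col1a2 (edgeR adjusted p = 0.989) and -0.24 ± 2.23 for Col3a1 (edgeR adjusted p = 1.00). Without primordial sham replicate 3 the Col1a1 difference was -1.70, and without primary NTY replicate 1 it was -1.24. For Col1a2 it was 1.08 and for Col3a1 0.20 without primordial NTY replicate 3. Col9a3 had the smallest p. It had counts in 2 primordial NTY libraries (8 and 101) and in all primary sham libraries, and 0 in the other 2 groups, and its fitted difference of -17.47 ± 4.96 (edgeR adjusted p = 0.153) depends on the prior count. No collagen gene passed edgeR, against 0.0095% of all genes, 3 had an unadjusted p under 0.05 (1 higher and 2 lower), against 11.8%, and DESeq2 called Col9a2, Col9a3 and Col26a1, against 11.6%. It called Col6a3 as well as these without primordial NTY replicate 3, against 10.8%.

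Collagens have been used as a sign of stromal RNA, so markers of the stroma other than collagens were summed (Dcn, Lum, Pdgfra, Tcf21, Nr2f2 and Mfap4). They had a median of 423 CPM in microdissected and 0.843 CPM in MII libraries. The values were 5.41, 365 and 1690 CPM in primordial sham, 296, 396 and 1640 CPM in primordial NTY, 441, 591 and 406 CPM in primary sham, and 510, 1309 and 262 CPM in primary NTY. Nr2f2, a nuclear receptor, was the most abundant of the 6. Between 2 and 6 of the 6 markers reached 10 counts per microdissected library, and none was at 0 in all of them.

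The highest stromal and collagen sums did not always coincide. Primordial sham replicate 3 and primordial NTY replicate 3 were high for both. Their stromal sums were mostly Nr2f2, at 1591 and 1602 CPM. In primordial NTY replicate 3 Dcn was at 3.29 CPM, and Tcf21 and Mfap4 were at 0. Primary NTY replicate 2 and primary sham replicate 2 had 1309 and 591 CPM of stromal markers with 6350 and 7166 CPM of collagen. Primary NTY replicate 1 had the highest collagen sum, 20213 CPM, with 510 CPM of stromal markers. Primordial sham replicate 1 had 4975 CPM of collagen with 5.41 CPM of stromal markers, and Lum, Pdgfra, Tcf21 and Mfap4 were at 0 there. In that library the endothelial receptor Tek was at 831 CPM, against at most 20.1 CPM in the 11 others, and of the other 5 endothelial markers Emcn had 0.264 CPM and the rest 0. Its smooth muscle and pericyte markers summed to 290 CPM, with Pdgfrb at 211 CPM and Myh11 at 75.1 CPM. In MII libraries Col19a1, Col25a1 and Col13a1 were found where stromal markers were near 0. Primordial sham replicate 3, with the highest stromal sum of 1690 CPM, had 44.9 CPM of Col25a1 and 31.0 CPM of Col13a1. This was more Col13a1 than in any MII library, where it was at most 8.77 CPM. Whether the collagen RNA came from stroma was not tested, and the genes are called collagens here by their names.

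Granulosa markers were present in every microdissected library, at a median of 2172 CPM and a range of 779 to 5010 CPM, led by Wt1. In primordial sham replicate 1, Wt1 made 609 of 779 CPM and Foxl2 and Inha were at 0, and in primordial NTY replicate 3 Foxl2 was at 2.70 CPM and 5 of the 14 markers reached 10 counts. Foxl2 was also low in primordial NTY replicate 1, at 0.970 CPM, where 12 of the 14 markers reached 10 counts. In MII libraries the median was 145 CPM, Wt1 and Foxl2 had no count, and Esr2 led. Surface epithelium markers had a median of 34.5 CPM, endothelial markers 4.16 CPM, theca and steroid markers 0.851 CPM, leukocyte markers 0.493 CPM and blood markers 0.0384 CPM in microdissected libraries. The early oocyte genes had a median of 1628 CPM, led by Foxo3, and smooth muscle markers 165 CPM. In MII libraries the medians were 6.04 CPM for surface epithelium, 141 CPM for endothelial markers, mostly Pecam1, 7.12 CPM for theca and steroid, 23.8 CPM for leukocyte, 0.115 CPM for blood, 1611 CPM for early oocyte and 45.0 CPM for smooth muscle markers, mostly Myh11. Wt1, Pecam1, Esr2 and Myh11 are also known outside the cells they mark.

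The genes that make, bind and break down collagen followed it only in part. The 28 biosynthesis genes had a median sum of 1485 CPM in microdissected and 582 CPM in MII libraries. Serpinh1, the collagen chaperone, was at a median of 466 CPM in microdissected libraries, with a range of 21.0 to 1265 CPM, and had 0 counts in all 6 MII libraries. Bmp1, which cleaves the C-propeptide of fibrillar procollagens, had a median of 83.8 CPM and Adamts2, which cleaves the N-propeptide, 106 CPM. Bmp1 had no count in MII libraries and Adamts2 at most 1.10 CPM. P4hb, a subunit of prolyl hydroxylase and also a general protein disulfide isomerase, was present in both, at medians of 58.1 and 168 CPM. Ppib, a prolyl isomerase, was at 113 and 151 CPM. Pcolce2, an enhancer of propeptide cleavage, had 0 counts in all 12 microdissected libraries and 11.7 to 27.8 CPM in MII libraries.

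The 12 genes of the breakdown list, of which Timp1, Timp2, Timp3 and Timp4 encode inhibitors of metalloproteinases, had a median sum of 477 CPM in microdissected and 40.8 CPM in MII libraries. Timp2 had a median of 14.3 CPM in microdissected libraries and reached 329 CPM. The membrane collagenase Mmp14 had a median of 108 CPM and no count in MII libraries, and the gelatinase Mmp2 had medians of 68.9 and 39.0 CPM. The 9 receptor genes had median sums of 508 and 144 CPM, led in both by the integrin subunit Itgb1 at 356 and 71.1 CPM. The collagen receptor kinase Ddr1 had medians of 120 and 49.3 CPM. The 15 matrix partners had median sums of 3192 and 599 CPM. Of these, the laminin chain Lamb1 was high in both, at 698 and 556 CPM, while the fibrillin Fbn1 was at 517 and 0.351 CPM, Lamc1 at 312 and 27.8 CPM, and Sparc, a collagen-binding protein, at 301 and 0.821 CPM.

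None of these 4 lists had a gene past edgeR's adjusted threshold in any of the 6 comparisons. In primordial follicles, 25 of the 28 biosynthesis genes were tested for NTY against sham, and their median log2 fold change was 1.55 against 0.12 for all genes, with 3 at an unadjusted p under 0.05 (against 10.9% of all genes) and 3 called by DESeq2 (against 11.4%). Their median was 0.50 against 0.01 without primordial NTY replicate 3, with 2 at an unadjusted p under 0.05 (against 9.75% of all genes) and 1 called by DESeq2 (against 9.6%). In primary follicles it was 0.44 against -0.10, with 2 (against 8.15%) and 2 (against 6.59%), and it turned to -0.18 without primary NTY replicate 2. Of the 14 matrix partners tested, the median was -0.01 in primordial follicles (-0.23 without primordial NTY replicate 3) and 1.41 in primary follicles. The 4 receptors tested had a median of 0.77 and -1.59, and the 5 genes tested of the breakdown list 0.01 and 0.94. Medians of cell markers for NTY in primordial follicles were 2.05 for granulosa, 1.16 for smooth muscle and pericyte, 0.91 for stroma and -1.79 for oocyte growth genes, and in primary follicles -0.92, 2.39, 0.56 and -0.17. Early oocyte genes were at -1.21 and, unlike the oocyte growth genes, at 0.92. The 3 endothelial genes tested were at -2.86 and -1.55, and the 3 surface epithelium genes at 3.01 and -2.10. The 2 leukocyte genes tested were at 6.79 and 6.64, and the 1 theca and steroid gene at 4.72 and -3.55. All primordial values here include primordial NTY replicate 3. The part of the cell markers in the other medians was not tested. These medians are descriptions of few genes in libraries that varied widely.

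The genome around the members' starts was examined last. RefSeq windows on GRCm38.p6, from 250 bases before to 50 after the start, were matched for 35 of the 43 genes. The windows of Col1a1, Col4a3, Col5a2, Col9a3, Col12a1, Col14a1, Col22a1 and Col26a1 were not used here. The letters GGGCGG, searched on both strands, were in 22 of the 35 windows (62.9%), against 35.9% of 27025 windows. CCAAT was in 12 (34.3%, against 37.9%) and TATAAA in 5 (14.3%, against 14.2%). A match is a string of letters and not a measured binding site.

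The windows of Col1a2, present in all 12 microdissected and in no MII library, and of Col19a1, with the opposite pattern, are shown for comparison. The first lies at chr6:4505368-4505667 on the plus strand and holds GGGCGG and CCAAT, on either strand, in capitals. It is placed by a RefSeq start that lies downstream of the GENCODE gene start given above, so it falls inside the GENCODE gene. The second lies at chr1:24587388-24587687 on the minus strand and holds none of the 3 strings. No test links these letters to the levels.
Col1a2: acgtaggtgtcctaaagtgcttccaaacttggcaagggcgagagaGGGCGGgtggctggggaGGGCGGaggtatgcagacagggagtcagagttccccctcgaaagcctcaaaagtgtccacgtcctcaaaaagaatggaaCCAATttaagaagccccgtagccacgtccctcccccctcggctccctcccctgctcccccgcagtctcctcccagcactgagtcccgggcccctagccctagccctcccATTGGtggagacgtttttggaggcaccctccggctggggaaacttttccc
Col19a1: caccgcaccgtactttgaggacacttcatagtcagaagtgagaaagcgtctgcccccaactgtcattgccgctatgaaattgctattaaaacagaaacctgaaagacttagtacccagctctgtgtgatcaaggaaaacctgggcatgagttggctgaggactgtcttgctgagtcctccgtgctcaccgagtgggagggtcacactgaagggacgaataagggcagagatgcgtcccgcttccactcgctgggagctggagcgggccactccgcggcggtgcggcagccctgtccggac

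Col4a1 and Col4a2 lie head to head on chromosome 8, at chr8:11198423-11312826 on the minus strand and chr8:11312805-11449287 on the plus strand, and their annotated ends overlap by 22 bases. Col4a3 and Col4a4 are 71 bases apart on chromosome 1 and Col4a5 and Col4a6 1308 bases apart on the X chromosome, in the same arrangement. Reads from the overlap cannot be assigned to 1 gene without strand, and the use of strand in counting was not given in the sources used here. The windows of Col4a1 (chr8:11312777-11313076, minus strand) and Col4a2 (chr8:11312555-11312854, plus strand) are printed to show the 78 bases they share, chr8:11312777-11312854, in capitals and on opposite strands. The TPM ratio of these chains, which share this region, ranged from 0.311 to 8.23 between libraries.
Col4a1: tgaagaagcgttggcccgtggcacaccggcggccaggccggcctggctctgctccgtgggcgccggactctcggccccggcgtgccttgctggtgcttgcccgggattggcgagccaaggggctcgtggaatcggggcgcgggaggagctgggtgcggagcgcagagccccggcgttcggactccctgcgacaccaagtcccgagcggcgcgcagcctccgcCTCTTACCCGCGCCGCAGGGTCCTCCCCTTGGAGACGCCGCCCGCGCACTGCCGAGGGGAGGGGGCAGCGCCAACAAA
Col4a2: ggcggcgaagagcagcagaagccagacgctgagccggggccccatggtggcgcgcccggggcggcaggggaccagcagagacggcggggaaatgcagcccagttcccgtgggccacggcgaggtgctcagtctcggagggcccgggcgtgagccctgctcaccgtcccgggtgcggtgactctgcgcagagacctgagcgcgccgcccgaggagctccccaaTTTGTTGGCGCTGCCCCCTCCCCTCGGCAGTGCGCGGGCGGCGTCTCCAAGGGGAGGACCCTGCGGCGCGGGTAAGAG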

How the data were processed

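Raw counts per gene, deposited by the authors as whole numbers without normalization, were joined on Ensembl identifiers to the deposited TPM. The submitters' processing notes name mm10, Trim Galore 0.4.1, TopHat2 and featureCounts. Settings, strand use and the gene lengths behind the TPM were not given in the sources used here. TPM columns summed to 1000000. CPM were computed from total counts. Counts were tested with edgeR 4.0.16 (R 4.3.3; filterByExpr, TMM, robust quasi-likelihood fit, Benjamini-Hochberg over all genes tested), in 1 fit of 12 microdissected libraries and 1 of 6 MII libraries. SE is the log2 fold change over the root of F. The script was tested on simulated data with less spread between libraries than the microdissected fit had. Recovery of changes at that larger spread was not tested. DESeq2 1.42.0, other scalings and filters, a replicate block and leaving out each library were alternatives. Figures used Python 3.11.15 with matplotlib 3.10.9. No replicate files were copies: the lowest chi-square per degree of freedom was 38.0. Test values were printed for the smallest p of each comparison and the 3 collagens with the highest median TPM. Other genes were named for their levels, Zp3, Emcn and Rgs5 after seeing them. Members and lists were chosen with earlier results of these data known. Gene positions are from GENCODE M21.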

Additional observations from a re-analysis of the deposited data

Results flagged for a closer look

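Col6a6, a long chain of type VI collagen, differed between sham and NTY in opposite directions in primary follicles and in MII oocytes, without overlap of the groups in either. In primary follicles it had 441, 319 and 1164 counts in sham and 0, 2 and 70 counts in NTY. In MII oocytes it had 56, 101 and 103 counts in sham and 202, 174 and 279 counts in NTY. Neither change passed its test (edgeR adjusted p = 0.898 in primary follicles and 0.9998 in MII oocytes). In primordial follicles the groups overlapped, with 2, 154 and 485 counts in sham and 30, 279 and 36 in NTY. The NTY difference in log2 of mean CPM plus 1 was 5.20 higher in MII oocytes than in primary follicles. This difference was not tested, since the stages were prepared by different methods. In primary follicles 13.8% of all genes tested were lower without overlap, and in MII oocytes 2.3% were higher.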

How the results depend on the processing

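The number of collagen genes called by edgeR stayed at 0 with RLE size factors, without the expression filter and with primary NTY replicates 2 and 3 summed (their library codes may name the same material). It was 0 to 0 when each library was left out in each of the 6 comparisons. With DESeq2 it was 3 for NTY in primordial follicles, 1 in primary follicles, 1 in MII oocytes, 0 for stage in sham, 3 for stage in NTY and 3 for the difference of effects. DESeq2's share of all genes called was higher too, and the cause was not tested.

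Same-numbered libraries did not deviate together (mean correlations across genes of 0.026, -0.013, -0.008, -0.003 and -0.020). No pairing by number was seen, but libraries that varied this widely cannot exclude it. A replicate block left the count at 0 in each comparison. With the block, Col1a1 turned to 0.70 for stage in sham and Col3a1 to 0.11 for stage in NTY.

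RLE size factors moved the median log2 fold change of all genes by 0.29 for NTY in primary follicles, by -0.29 for stage in sham and by 0.28 for the difference of effects. They turned Col3a1 to -0.12 for stage in sham, Col1a1 to -0.83 for stage in NTY and Col1a1 to -0.087 for the difference. DESeq2 gave the same -0.12, -0.83 and -0.087. Without the expression filter Col1a1 was -0.12 for stage in NTY. With the replicates summed Col3a1 was 0.14 for stage in NTY and 0.031 for the difference. None of these values passed its test. The 29 collagens were higher and lower in NTY in 17 and 12 cases in primordial follicles (19 and 10 with RLE factors) and in 18 and 11 in primary follicles (20 and 9), where 51.7% and 48.2% of all genes were higher. For stage they were higher and lower in 9 and 20 cases in sham (7 and 22) and in 12 and 17 in NTY (9 and 20).

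Leaving out each library gave log2 fold changes, for NTY in primordial follicles, of -0.17 to 3.77 for Col1a1 and -0.19 to 1.67 for Col1a2. For stage in sham the values were -1.49 to 1.77 for Col1a1, -0.61 to 0.41 for Col1a2 and -0.12 to 0.91 for Col3a1. For stage in NTY they were -1.76 to 1.70, -0.99 to 0.81 and -1.09 to 0.46. For the difference they were -1.70 to 2.30, -0.89 to 1.08 and -1.31 to 0.24. The median of the collagen genes with RLE factors, no expression filter and the block was 0.94, 0.090 and 0.60 for NTY in primordial follicles, 1.20, 0.77 and 0.91 in primary follicles, 0.012, -1.68 and -0.14 in MII oocytes, -0.78, -0.42 and -0.073 for stage in sham, -0.99, -0.48 and -0.27 for stage in NTY and -0.087, 0.18 and -0.17 for the difference. With the replicates summed it was 0.85, -0.86 and 0.031 for NTY in primary follicles, stage in NTY and the difference. The medians of all genes were 0.10, 0.00 and 0.39 for NTY in primordial follicles, 0.19, -0.29 and -0.75 in primary follicles, 0.04, -0.17 and -0.13 in MII oocytes, 0.00, 0.53 and 1.05 for stage in sham, 0.09, 0.00 and -0.10 for stage in NTY and -0.28, -1.44 and -1.35 for the difference, and -0.15, 0.00 and -0.64 with the replicates summed. For the difference the main medians were -0.14 for collagens and -0.56 for all genes. These medians were chosen after seeing the data. With each library left out, the median for NTY was -0.83 to 1.20 in primordial and 0.13 to 1.17 in primary follicles, and that of the biosynthesis genes 0.50 to 3.18 and -0.18 to 0.98 (also chosen after seeing the data). Without primordial NTY replicate 1, Col9a2 had no count in the stage comparison and gave no value.

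Mean summed CPM with each library left out was 4215 to 7921 in primordial sham, 4915 to 10642 in primordial NTY, 3220 to 5200 in primary sham, 4651 to 13282 in primary NTY, 129 to 154 in MII sham and 134 to 169 in MII NTY. Deposited TPM, which divide by gene length, summed to 1670 in primary sham, 46.0 in MII sham and 42.9 in MII NTY. Without Col25a1, the member with the most counts, the MII means were 112 CPM in sham and 114 CPM in NTY. Depth limits what can be said of genes at 0, and amplification adds spread that counts do not show.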
